A study of Trichoderma reesei QM6a with 4 samples.

Results

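Beta-glucosidases release glucose from the non-reducing end of cellobiose and short cello-oligosaccharides. In the filamentous fungus Trichoderma reesei they complete the breakdown of cellulose and remove cellobiose, which inhibits cellobiohydrolases. Secreted forms act on cellobiose outside the hypha and intracellular forms on sugar that has been taken up. By transglycosylation these enzymes also make sophorose, an inducer of cellulase genes, and the intracellular enzymes Cel1a and Cel1b are known to take part in induction on lactose. Glucose represses the cellulase genes of this fungus through the repressor Cre1, and Xyr1 is their main activator.

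The beta-glucosidases of glycoside hydrolase families GH1 and GH3 were followed here as 10 genes chosen by their identifiers on the array, out of 9127 genes in all. The 2 GH1 genes are cel1a (array identifier ASTRICH120749) and cel1b (ASTRICH22197). The 8 GH3 genes are cel3a (ASTRICH76672), cel3b (ASTRICH121735), cel3c (ASTRICH82227), cel3d (ASTRICH46816), cel3e (ASTRICH76227), and the loci TRIREDRAFT_104797 (ASTRICH104797), TRIREDRAFT_108671 (ASTRICH108671) and TRIREDRAFT_47268 (ASTRICH47268), which are named by locus tag. The names cel3d and cel3e come from the list of genes chosen, and the reference table gives these loci no symbol. Each of the 10 genes had 5 probes, 50 in all, out of 43565 probes.

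Messenger RNA of mycelium was measured on 4 one-colour arrays, 2 from wild-type cultures and 2 from AT01, a mutant with a high ability to accumulate copper according to its labels. Both strains had grown in YPD, a rich medium with glucose, containing 1 mM CuSO4, for 5 days at 25 °C, so every sample had copper and none was a copper-free control. The labels do not say how AT01 was made or whether 2 arrays of one strain stand for 2 cultures. The p-values therefore reflect how far replicate arrays lay apart, and this may be technical variation alone. In RNA from whole mycelium, fewer cells of a kind and less RNA per cell cannot be told apart.

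The arrays were dim, and those of AT01 were brighter. Wild-type arrays had a 75th percentile of processed signal of 20.9 and 22.2, and AT01 arrays one of 41.6 and 40.04. Levels are given as the log2 processed signal minus that percentile, averaged over the probes of a gene, and changes as AT01 minus wild type on this scale. The lowest signal the scanner software reports was nearly the same on all arrays, 1.42 to 1.57. After scaling it lay at -3.88 and -3.82 for the wild type and at -4.76 and -4.74 for AT01. A probe at this limit on every array therefore reads as a change of -0.90 from the scaling alone. Of the 4 mycelium markers, tef1a, TRIREDRAFT_44504 and hfb1 had every probe well above background on all 4 arrays. TRIREDRAFT_123955 had no probe so on both wild-type arrays, and 1 of 4 on both AT01 arrays. The conidial pigment marker TRIREDRAFT_82208 had 0 of 5 on both arrays of either strain, and hfb2, the other conidia marker, had 1 of 4 on all arrays. Between the strains hfb1 was called higher, by 0.56 ± 0.12 (limma's Benjamini-Hochberg adjusted p = 0.0120). That call ended with the median of the probes (0.61) and without AT01 array 1 (0.56) or 2 (0.56), and with the brightest probe the change was -0.39 and not called. TRIREDRAFT_123955 was called lower in the fit, at -1.12 ± 0.14 (limma's adjusted p = 0.00337) and at -0.55 with a lower limit shared by all arrays (limma's adjusted p = 0.0131), with no wild-type probe well above background. The fitted change of hfb2 was 0.010 and not called, but it was called lower with the brightest probe (-0.73) and with normexp background correction (-0.18). The fitted changes of tef1a (-0.11) and TRIREDRAFT_44504 (-0.18) were not called. With quantile normalization (0.61), cyclic loess (0.67), normexp (0.39) and in the authors' deposited table (0.61) tef1a was called higher. TRIREDRAFT_44504 was called higher with normexp (0.185). The part of these markers in the results was not tested.

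Most beta-glucosidase probes were near or below the detection limit in both strains. The brightest probes of cel3b, cel3c, cel3d, cel3e and TRIREDRAFT_108671 lay well above it. Of the 50 probes, 10 and 9 lay well above background in the wild type and 15 and 16 in AT01. That is 20% and 18% against 30% and 32%, where the whole array had 48% and 46% against 61% and 60.3%. The gain with the brighter AT01 arrays was shared by the array as a whole: 4 of the 50 beta-glucosidase probes were well above background on both AT01 arrays and on neither wild-type array, and 9.02% of all probes were. On all 4 arrays 8 probes of 6 genes were well above background, 33 were so on none, and 8 sat at the lowest signal on every array.

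The gene of the main secreted beta-glucosidase, cel3a, was not well above background in either strain. None of the 5 probes of cel3a was well above background on any array, and their processed signals ran from 1.42 to 4.88. On the scaled log2 scale its level was -3.61 and -3.22 in the wild type and -4.30 and -4.47 in AT01. Those AT01 levels lie below the lowest value a wild-type array can show, so the gap holds the shift of the lower limit, and no fold is given.

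The same held for cel1b and TRIREDRAFT_47268, which had no probe well above background on any array. The level of cel1b, an intracellular GH1 enzyme gene, was -3.77 and -3.51 in the wild type and -4.08 and -3.81 in AT01. The level of TRIREDRAFT_47268 was -3.55 and -3.52 against -3.56 and -3.18, with overlapping strains. The highest processed signals of the 2 genes were 6.07 and 6.60, both on AT01 arrays. With this signal a difference between the strains was not detectable.

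**Figure D1:**
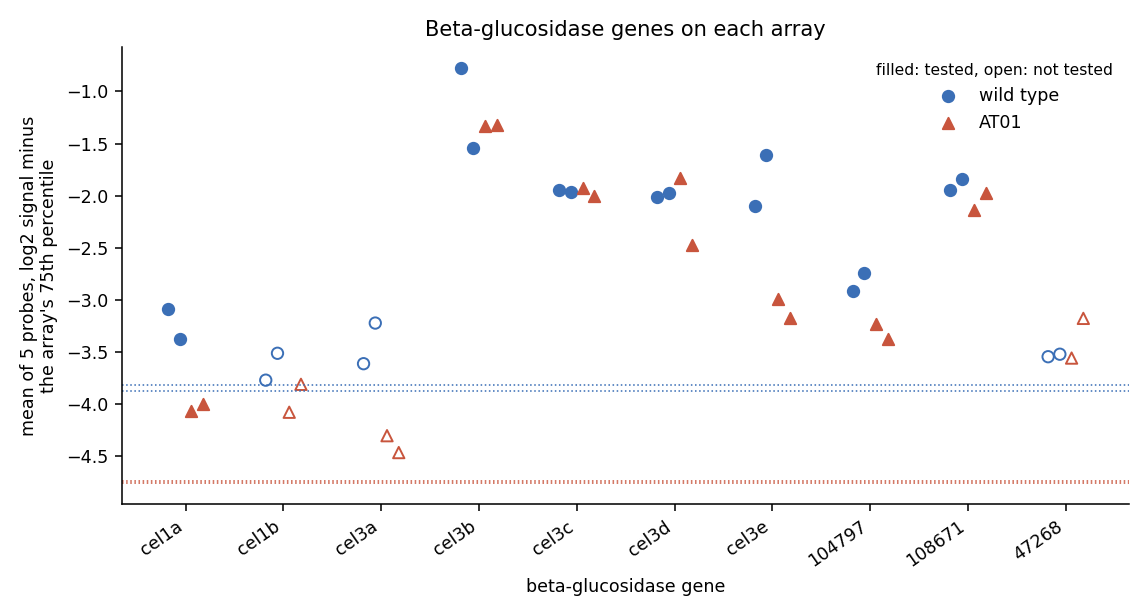
Level of each beta-glucosidase gene on each array (y axis: mean of 5 probes on the log2 scale, minus the array's 75th percentile; x axis: gene, with numbers for locus tags). Circles are wild-type arrays, triangles AT01 arrays, open symbols genes not tested, and dotted lines the lowest possible value on each array. The AT01 levels of cel3a, -4.30 and -4.47, lie below the wild-type lines, and cel3b is at -0.78 on wild-type array 1 against -1.54 on wild-type array 2.

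The 7 other genes were tested in a fit over 8018 genes, those with 1 or more probes well above background on each array of one strain or the other. Of the 7, cel1a, cel3e and TRIREDRAFT_104797 fell in AT01 and 0 rose, where limma's p after Benjamini-Hochberg adjustment had to lie under 0.05. Over all genes tested, 32.7% were called lower and 14.6% higher, so 3 of 7 (42.9%) is near the background. The median change of the 7 genes was -0.17, against -0.23 for all genes tested. Of the 3 falls, only that of cel3e kept its call in each of 3 alternatives: a lower limit shared by all arrays, quantile normalization and cyclic loess.

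The gene cel3e, assigned to the secreted GH3 forms, had the largest change of the 7. Its level was -2.10 and -1.61 in the wild type and -2.995 and -3.18 in AT01. Both AT01 arrays lay below both wild-type arrays. The change was -1.23 ± 0.19 (SE, n = 2 arrays per strain, limma's Benjamini-Hochberg adjusted p = 0.00495). The size became -0.69 with the common lower limit (limma's adjusted p = 0.0290), -0.83 with quantile normalization (limma's adjusted p = 0.0376) and -0.86 with cyclic loess (limma's adjusted p = 0.0154).

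The fall of cel3e rested largely on dim probes. Its brightest probe, the only one well above background on all 4 arrays, had processed signals of 63.2 and 99.7 in the wild type and 110.8 and 89.7 in AT01. The change of that probe was -0.59 ± 0.24 after scaling and did not pass the threshold when each probe was fitted on its own (limma's Benjamini-Hochberg adjusted p = 0.122). The second probe, at 5.93 and 9.61 against 9.68 and 5.56, was well above background on 1 array of each strain and changed by -0.96. The largest probe change, -2.16, came from a probe at 3.68 and 3.47 against 1.54 and 1.5 that was well above background on no array. The call of cel3e ended with the brightest probe alone (-0.59, limma's adjusted p = 0.104), with probes above background alone (-0.59, limma's adjusted p = 0.101) and in the authors' deposited table (-0.63, limma's adjusted p = 0.0957).

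Neighbours of cel3e in the reference order fell as well. Among the 20 loci on either side, 32 of 40 were tested, 27 fell, 0 rose, and 11 fell at least 2-fold on the fitted scale, against 32.7% and 3.06% of all genes. After quantile normalization 11 of the 32 were called lower, against 11% of all genes. TRIREDRAFT_120884, 2 loci away, changed by -2.77 ± 0.14 and TRIREDRAFT_76220, 4 loci away, by -2.42 ± 0.18 (limma's Benjamini-Hochberg adjusted p = 0.000766 and 0.00119). In the wild type 4 probes of each were well above background on both arrays, and in AT01 1 probe of each was. The loci next to cel3e on either side, TRIREDRAFT_105263 and TRIREDRAFT_58701, were too dim to test. This stretch was known from earlier results of these data. Among the 5 loci on either side, cel3e had 3 falls of at least 2-fold and no other beta-glucosidase gene had more than 1. Falls of any size were not particular to cel3e. They numbered 4 of 7 tested for cel3e, 7 of 9 for cel3a, 5 of 8 for TRIREDRAFT_108671 and 0 to 3 for each other gene.

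**Figure D2:**
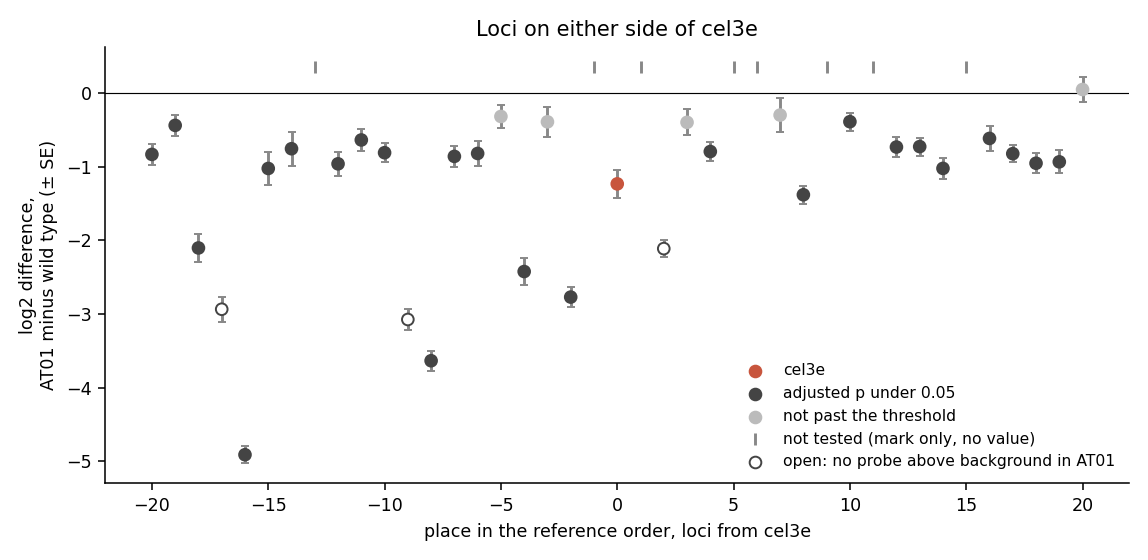
Fitted log2 change, AT01 minus wild type, with its SE (y axis) for the loci on either side of cel3e, by their place in the reference order (x axis). Open circles have no probe well above background on any AT01 array, so that their fitted values are no measured size, and bars near the top mark loci not tested. Dark points are loci called lower, 27 of the 32 tested.

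The fall of cel1a, the intracellular GH1 gene, went against its detection. Its level was -3.08 and -3.38 in the wild type and -4.06 and -3.998 in AT01, with no overlap. Both AT01 levels lie below the lowest value a wild-type array can show, -3.88 and -3.82. The lack of overlap and the fitted change therefore hold the shift of the lower limit, as for cel3a. The change was -0.80 ± 0.15 (SE, n = 2 arrays per strain, limma's Benjamini-Hochberg adjusted p = 0.00757). A single probe of cel1a was ever well above background, on 1 of the 2 wild-type arrays and on both AT01 arrays. Its processed signals were 8.17 and 7.32 in the wild type and 10.7 and 9.45 in AT01. They were higher in AT01 before scaling, by 1.30-fold, and lower by 0.54 on the log2 scale after it. The other 4 probes read between 1.42 and 3.12 on all arrays. With the common lower limit the change was -0.24 (limma's adjusted p = 0.230), with quantile normalization -0.24 (limma's adjusted p = 0.370) and with cyclic loess -0.28 (limma's adjusted p = 0.198). The authors' deposited table, with 17 beta-glucosidase probes in all, held cel1a at -0.54 (limma's adjusted p = 0.0281). That is about the change of its single detected probe.

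The fall of TRIREDRAFT_104797, a GH3 gene of no assigned location, rested on its dim probes. The level was -2.92 and -2.75 in the wild type and -3.23 and -3.38 in AT01, again without overlap. The change was -0.47 ± 0.13 (SE, n = 2 arrays per strain, limma's Benjamini-Hochberg adjusted p = 0.0293). The only probe well above background on all arrays had processed signals of 10.6 and 12.4 against 22.3 and 26.5, and changed by 0.16 ± 0.18 after scaling. Over the 2 probes that passed the background filter, of which the dimmer did so in AT01 alone, the change was 0.025 (limma's adjusted p = 0.903). The remaining 3 probes were well above background on no array and changed by -0.82, -0.69 and -0.90, the last of them at the lowest signal throughout. With the common lower limit the change was -0.067 (limma's adjusted p = 0.696).

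The 4 remaining genes were not called, and their intervals do not exclude changes of moderate size. The secreted form cel3b read -0.78 and -1.54 in the wild type and -1.33 and -1.32 in AT01, which lay within the wild-type range. Its change was -0.16 with a 95% interval of -0.76 to 0.43 (limma's Benjamini-Hochberg adjusted p = 0.602). The value depended on the wild-type arrays: without array 1 the change was 0.22, and without array 2 it was -0.55, which passed the threshold (limma's adjusted p = 0.0345).

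The intracellular form cel3c read -1.95 and -1.96 in the wild type and -1.93 and -2.002 in AT01, which overlapped. Its change was -0.011 with a 95% interval of -0.30 to 0.28 (limma's Benjamini-Hochberg adjusted p = 0.948). The intracellular form cel3d read -2.02 and -1.98 against -1.83 and -2.48, with the wild-type arrays between the AT01 arrays. Its change was -0.16 with an interval of -0.68 to 0.37 (limma's adjusted p = 0.577). It was 0.17 without AT01 array 2 and -0.48 without AT01 array 1, neither past the threshold.

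TRIREDRAFT_108671, of no assigned location, read -1.94 and -1.84 against -2.14 and -1.98, and the strains did not overlap. Its change was -0.17 with an interval of -0.48 to 0.14 (limma's Benjamini-Hochberg adjusted p = 0.316). The gene had 2 probes well above background on all arrays. One read 61.7 and 125 in the wild type and 154 and 134 in AT01, and the other 14.6 and 18.5 against 27.1 and 23.0. They changed by -0.21 and -0.32 after scaling, close to each other, and neither passed the threshold.

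The averages of cel3c and cel3d joined a bright probe that read lower in AT01 after scaling with a second probe that read higher. Each probe was also fitted on its own, an alternative chosen after seeing the data. The brightest probe of cel3c had processed signals of 86.3 and 108 in the wild type and 132 and 92.1 in AT01 and changed by -0.73 ± 0.22, which was not called (limma's Benjamini-Hochberg adjusted p = 0.0592). Its second probe read 5.34 and 4.81 against 17.7 and 15.4. That probe was well above background on both AT01 arrays and on neither wild-type array, so it entered the fit only through the strain where it was high. Set against the lowest signal well above background on each wild-type array, 7.07 and 7.84, it was at least 1.17-fold higher in AT01 after scaling.

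For cel3d the brightest probe was called lower. It read 220 and 226 in the wild type against 258 and 240 in AT01 and changed by -0.76 ± 0.14 (limma's Benjamini-Hochberg adjusted p = 0.0213). The second read 5.83 and 6.51 against 18.5 and 19.3, again above background in AT01 alone, and was at least 1.34-fold higher by the same bound. In cel3b the brightest probe read 119 and 157 against 169 and 136 and was called lower, at -0.77 ± 0.19 (limma's adjusted p = 0.0386), while a dimmer one read 5.36 and 3.36 against 12.7 and 10.6. That one too was above background in AT01 alone, and the bound gives it no fold.

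**Figure D3:**
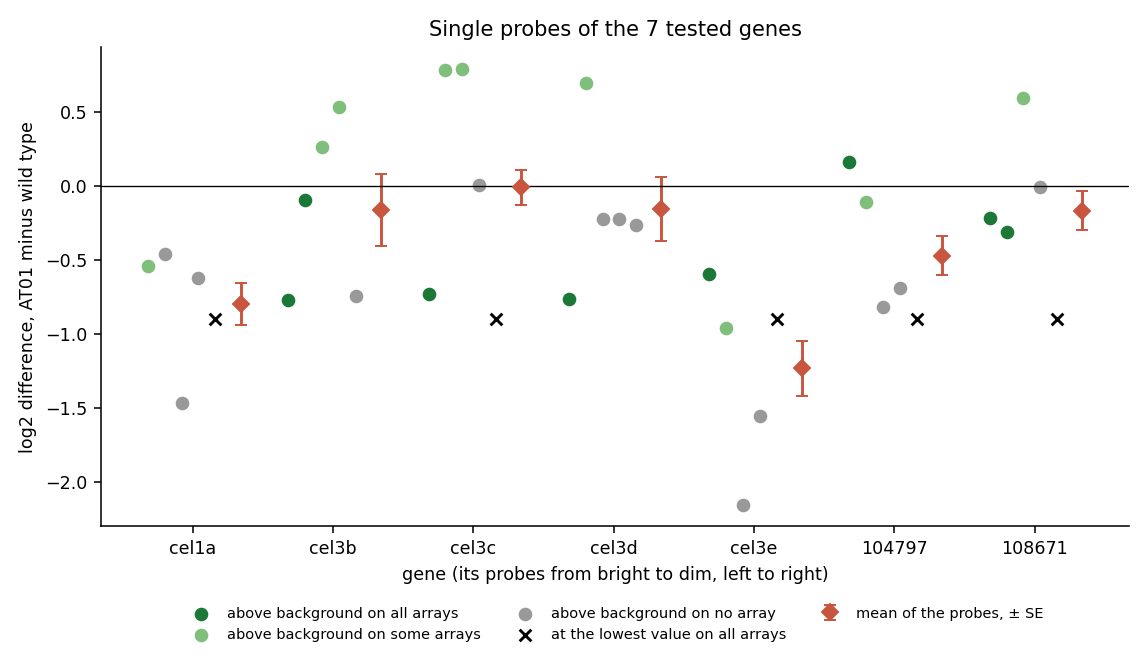
Log2 change of single probes, AT01 minus wild type after 75th percentile scaling (y axis), for the 7 tested genes (x axis), each gene's probes running from bright to dim. Dark green points were well above background on all 4 arrays, light green on some, grey on none, and crosses sat at the lowest signal on every array. Diamonds give the mean of the probes with its SE, which for cel3c is -0.011, with probes from -0.90 to 0.79.

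Over these single-probe fits 14 beta-glucosidase probes passed the background filter, of which 2 were called lower, those of cel3b and cel3d, against 17.5% of the 25102 probes fitted (15% higher). Of the 14, 8 were well above background on all 4 arrays. The others passed the filter through AT01 alone, so rises are not counted. Among these others, 4 were detected in no wild-type sample. The brightest probe of cel1a and the third brightest of cel3b were detected in 1 of them. After cyclic loess 1 of the 14 was called lower, that of cel1a (-0.61, limma's Benjamini-Hochberg adjusted p = 0.0473). Of all probes after cyclic loess, 8.82% were called lower and 15% higher. The brightest probes of cel3b, cel3c and cel3d then lay at -0.52, -0.55 and -0.41, past no threshold.

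The falls of the bright probes were read against probes of like brightness, since over the array the change moved with brightness. Among the 18668 probes well above background on all arrays, the median change was -0.43 in the dimmest decile of signal. From the second to the seventh decile it was between -0.048 and -0.14. It was -0.23 in the eighth decile, -0.40 in the ninth and -0.83 in the tenth. The bright probes of cel3b and cel3d lay in the ninth decile, whose quartiles were -0.75 and 0.20, and those of cel3c and cel3e in the eighth, with quartiles of -0.63 and 0.34. Of the 8 beta-glucosidase probes well above background on all arrays, 5 were within the quartile range of their decile, and 3 were above its median. The part of brightness in these changes was not tested.

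**Figure D4:**
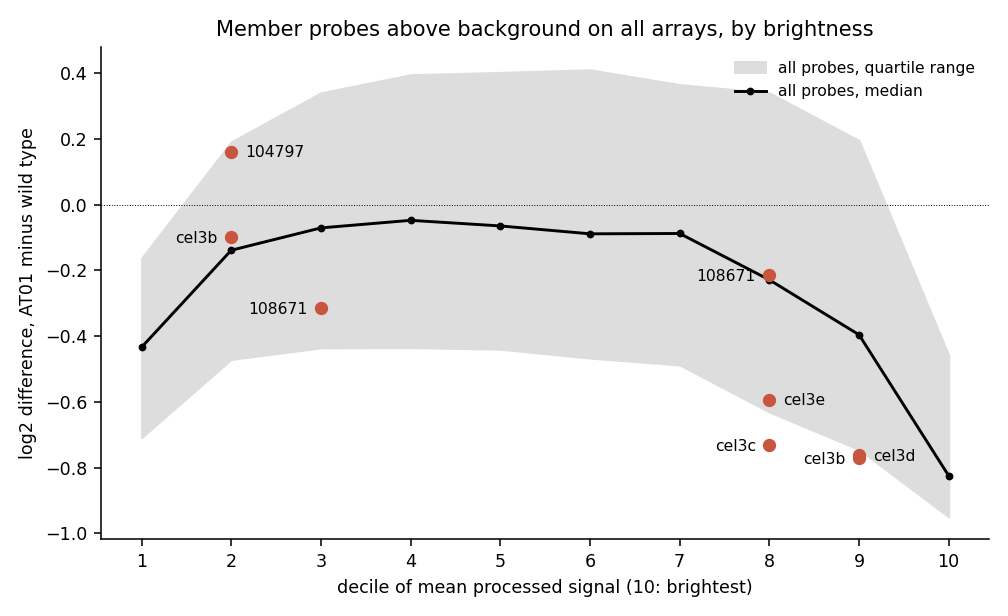
Log2 change, AT01 minus wild type after 75th percentile scaling (y axis), of the 8 beta-glucosidase probes well above background on all arrays, by the decile of mean processed signal in which they lie (x axis). The black line is the median and the grey band the quartile range over 18668 probes. The probe of cel3c, at -0.73, and those of cel3b and cel3d, at -0.77 and -0.76, lie just below the band, and 5 lie within it.

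Secreted and intracellular forms could be compared through few genes. By what is known of these enzymes, cel3a, cel3b and cel3e were taken as secreted and cel1a, cel1b, cel3c and cel3d as intracellular, and protein sequences were not used here. Of the 3 secreted forms 2 were tested, and 1 of these fell, cel3e, with a median change of -0.70. Of the 4 intracellular forms 3 were tested, and 1 fell, cel1a, with a median of -0.16. The medians were -0.40 and 0.074 with the common lower limit, and quantile normalization gave -0.45 and 0.16. Taking the brightest probe of each gene, they were -0.68 and -0.73. With 2 and 3 genes the difference between the forms was not tested.

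The number of beta-glucosidase genes called lower followed the background of each way of processing. With normexp background correction 6 of the 7 were called lower, against 59.3% of all genes (10.9% higher). With the percentile over detected probes 2 were, cel1a and cel3e, against 22.3% (16.9% higher). With quantile normalization, cyclic loess or the common lower limit cel3e alone was, against 11%, 11.2% and 16.4% (15.2%, 16.2% and 15% higher). With probes above background cel1a alone was, against 22.5% (15% higher). No beta-glucosidase gene was called higher in any of these.

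**Figure D5:**
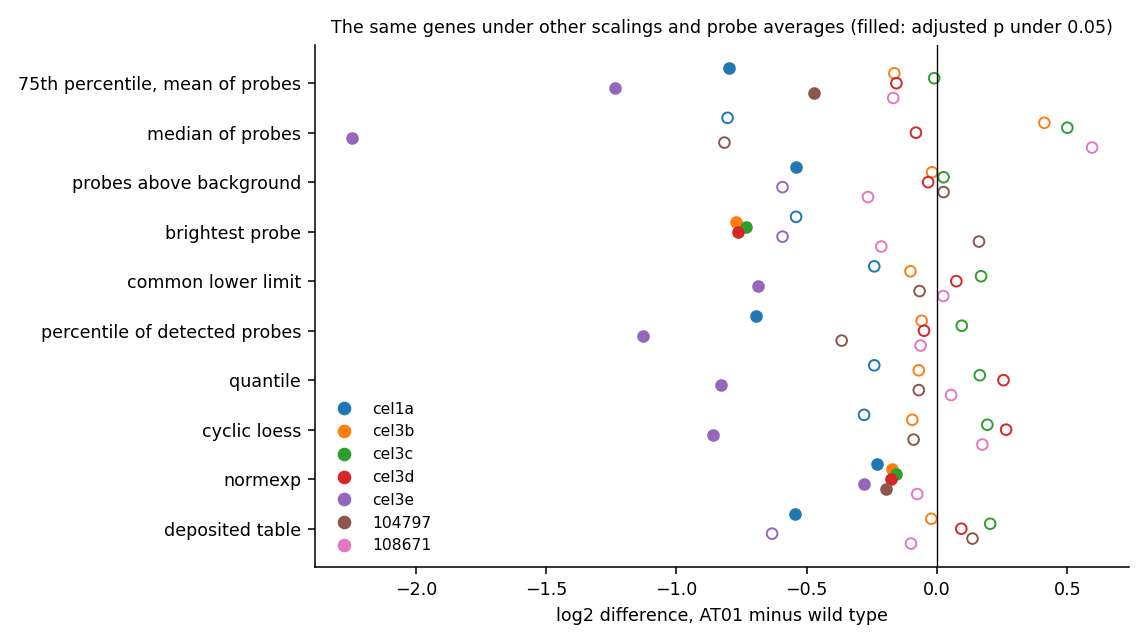
Log2 change of the 7 tested genes, AT01 minus wild type (x axis), under 10 ways of scaling the arrays or averaging the probes (y axis). Filled points have an adjusted p under 0.05 in limma, and colours are genes. In all 10 ways cel3e and cel1a were below 0, whereas cel3c ran from -0.73 to 0.50, and cel3b, cel3c and cel3d were called lower with the brightest probe.

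The count of lower genes among other genes of cellulose degradation depended on the scaling as well. Of 13 genes in the list, 11 were tested, 8 fell and 0 rose, against 32.7% lower and 14.6% higher among all genes. Their median change was -0.72, against -0.23 for all genes tested. The largest falls were those of the endoglucanase gene cel5a at -0.93 ± 0.12 and of cel61a, which codes for a polysaccharide monooxygenase, at -0.87 ± 0.13. TRIREDRAFT_123992 changed by -0.83 ± 0.14 and cip1 by -0.76 ± 0.12. These 4 had adjusted p between 0.00334 and 0.00633 (limma, Benjamini-Hochberg). Levels were -2.10 and -2.13 against -3.06 and -3.02 for cel5a, and -1.31 and -1.23 against -2.07 and -2.21 for cel61a. Of 5 probes per gene, 3 of cel61a, 2 of TRIREDRAFT_123992, 1 of cel5a and 1 of cip1 were well above background on all arrays. The AT01 levels of cip1, -4.04 and -3.9, lie below the lowest value a wild-type array can show, as for cel1a. Under the common lower limit 3 of these 11 fell, cel5a (-0.39), cel61a (-0.81) and TRIREDRAFT_123992 (-0.66), and cel61b rose (0.37). Over all genes 16.4% fell and 15% rose with that limit. The call of cel5a ended with quantile normalization (-0.37, limma's adjusted p = 0.0706). That of cel61a ended with probes above background (-0.31), the median of the probes (-0.65) and the authors' deposited table (-0.30), and with the brightest probe its change was 0.47 and not called. TRIREDRAFT_123992 was not called with the brightest probe (-0.14) or the median of the probes (-0.91). The change of cip1 was -0.069 with quantile normalization, -0.16 with cyclic loess, -0.097 with the common lower limit and -0.49 with the brightest probe, called in none of them.

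Among 4 regulators, xyr1 fell and TRIREDRAFT_52368 rose. The gene xyr1, the main activator of cellulase genes, read -1.41 and -1.22 in the wild type and -2.14 and -2.06 in AT01. Of its 5 probes, 2 were well above background on all arrays. Its change of -0.78 ± 0.13 (limma's Benjamini-Hochberg adjusted p = 0.00619) was -0.69 with the common lower limit and -0.75 after quantile normalization, past the threshold in both. With the median of its probes it was -0.85 and not called (limma's adjusted p = 0.0912). TRIREDRAFT_52368 had every probe well above background on all arrays and read 3.84 and 3.81 against 4.14 and 4.42, a change of 0.46 ± 0.14 (limma's adjusted p = 0.0389). It was 0.90 with quantile normalization and not called without AT01 array 2 (0.32), wild-type array 1 (0.48) or wild-type array 2 (0.44), nor with the brightest probe (0.57), probes above background (0.46) or the median of the probes (0.40). The changes of cre1 (-0.23) and ace1 (-0.028) did not pass the threshold. With the trended and robust prior cre1 did (-0.23, limma's adjusted p = 0.0330), and with normexp it was called higher (0.198, limma's adjusted p = 0.0119). Higher calls of ace1 came with normexp (0.14, limma's adjusted p = 0.0394) and in the authors' deposited table (0.46, limma's adjusted p = 0.0419). Neither gene has a settled direction, since both also lay above 0 with quantile normalization (0.16 and 0.28).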

How the data were processed

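Total RNA of mycelium was labelled with Cy3 and hybridised, 1 sample per array, per the labels' protocols. Array images were quantified in Agilent Feature Extraction, version 10.5.1.1 per the submitters' processing notes. Deposited intensity values are, per the file headers, background-subtracted processed signals, median pixel signals and flags. The deposited value table has log2 values, as their range shows. Its columns had medians of 4.31 to 4.32 and each followed the log2 signal of the matching array, with Pearson's r of 0.993 to 0.996 across probes. It held 28201 probes, 17 of them of 7 beta-glucosidase genes, and its normalization is not given in the sources used here. Its changes of tef1a (0.606) and TRIREDRAFT_52368 (0.899) equalled those with quantile normalization, so the 2 are not independent alternatives. Other genes differed, such as cel3e (-0.633 against -0.829).

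Control spots were left out, and 142 probes with an outlying spot on any array were left out of every array, so that a gene is averaged over the same probes throughout. No beta-glucosidase probe was among them. No spot was saturated. Each array's 75th percentile of the log2 signal was subtracted and the probes of a gene were averaged. AT01 was compared with the wild type in limma 3.58.1 (lmFit and eBayes, R 4.3.3), with p adjusted by Benjamini-Hochberg over all genes tested. The fit was tested on simulated data that had no lower limit of signal and no change with brightness. That test therefore does not cover either of them. Of the genes tested, 21.3% had 1 probe past the background filter. Precision is limited by having 2 arrays per strain.

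Array names match locus tags of the QM6a v2.0 assembly by their number, 9070 of 9127 (99.4%), and coordinates are left out. The genes, lists and rules were chosen with earlier results of these data known. All 10 beta-glucosidase genes are named. Of the other lists, up to 4 called genes by size and xyr1 were to be named. A further gene of the regulator list is not reported here. Uncalled regulators, markers, cel61b and the neighbours of cel3e were named after their values were seen. Alternatives were other scalings, probe averages, filters, prior variances, a replicate block, the deposited table and leaving out each array. The normexp alternative used median pixel signals, since mean signals are not in the headers.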

Additional observations from a re-analysis of the deposited data

How the results depend on the processing

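When dim probes were set to a common lower limit, 1314 genes fell in all, 1 beta-glucosidase gene and 3 cellulase list genes fell and 1 of the latter rose. The secreted median was -0.40, cel1a (-0.24) and TRIREDRAFT_104797 (-0.067) lost their calls, and cel3c (0.17), cel3d (0.074) and TRIREDRAFT_108671 (0.024) turned. With quantile normalization 882 genes fell, with 1 beta-glucosidase fall, 2 list falls and 1 list rise. The form medians were -0.45 and 0.16, cel1a lay at -0.24, TRIREDRAFT_104797 at -0.070, cel3c at 0.16, cel3d at 0.26 and TRIREDRAFT_108671 at 0.054. With cyclic loess 896 fell, with 1, 3 and 1 in the same order, medians of -0.48 and 0.19, cel1a at -0.28, TRIREDRAFT_104797 at -0.090, cel3c at 0.19, cel3d at 0.27 and TRIREDRAFT_108671 at 0.17. With the percentile over detected probes the secreted median was -0.59, cel3c 0.095 and TRIREDRAFT_104797 -0.37, no longer called. With normexp 4752 genes fell and 6 of the 7 beta-glucosidase genes, cel3b (-0.17), cel3c (-0.16) and cel3d (-0.18) among them, with a secreted median of -0.23. In the authors' deposited table, falls numbered 1181, and 1 beta-glucosidase gene and 4 list genes fell, the secreted median was -0.33, cel3e (-0.63) lost its call, and cel3c (0.20), cel3d (0.093) and TRIREDRAFT_104797 (0.14) turned. Rises made up 30.9% of calls, 47.8% with the lower limit, 58.0% with quantile normalization, 59.2% with cyclic loess, 43.1% with detected probes, 15.5% with normexp and 50.2% in the deposited table.

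With the brightest probe 2 list genes fell, the medians were -0.59 for all 7 genes and -0.73 for intracellular forms, cel3b (-0.77), cel3c (-0.73) and cel3d (-0.76) became called, cel1a (-0.54) and cel3e (-0.59) lost their calls and TRIREDRAFT_104797 turned (0.16). With probes above background 1 beta-glucosidase gene and 4 list genes fell, the secreted median was -0.31, cel3e (-0.59) lost its call, and cel3c (0.025) and TRIREDRAFT_104797 (0.025) turned. With the median of the probes 666 genes rose and 848 fell, 1 beta-glucosidase gene and 2 list genes fell, the secreted median was -0.92, cel1a (-0.80) and TRIREDRAFT_104797 (-0.82) lost their calls, and cel3b (0.41), cel3c (0.50) and TRIREDRAFT_108671 (0.60) turned. A trended and robust prior ended the call of TRIREDRAFT_104797 (-0.47). For these changes the cause was not tested.

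Leaving out 1 array gave 515 to 1075 rises and 992 to 2135 falls over all genes, 2 to 3 beta-glucosidase falls and 4 to 7 list falls. The medians ran from -0.48 to -0.22 for the 7 genes, -0.77 to -0.63 for secreted and -0.48 to 0.026 for intracellular forms. Changes ran from -0.95 to -0.65 for cel1a, -0.55 to 0.22 for cel3b, -0.047 to 0.026 for cel3c, -0.48 to 0.17 for cel3d, -1.48 to -0.99 for cel3e, -0.56 to -0.38 for TRIREDRAFT_104797 and -0.25 to -0.086 for TRIREDRAFT_108671. The falls of cel1a and cel3e stayed past the threshold in all 4 such fits, which have 1 array in a strain and assume it varies like the others, and that of TRIREDRAFT_104797 in 1, without wild-type array 1. The array numbers are shared by the strains but pair nothing: deviations of wild-type array 1 and AT01 array 1 from their strain means had r = 0.006 across genes. The replicate block gave 1241 rises, 2933 falls and the same 3 beta-glucosidase calls, cel3e at limma's adjusted p = 1.28e-05. Since the block uses these array numbers, that p makes the fall no surer than the main fit did (limma's adjusted p = 0.00495). All 4 arrays shared 1 scan time, so no slide block could be fitted. Beta-glucosidase results not named here kept their direction and side of the threshold. Among the limits of these values is signal over background: 33 of 50 beta-glucosidase probes were well above it on no array.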
